A study of Homo sapiens with 12 samples.

Results

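The genes described here are 50 that build ribosomes or make nucleotides. They were listed by symbol for their role, with earlier results of these data known, and all 50 were found among the 58684 entries of the deposited table, 1 of them (UTP4) under its older symbol. All 50 were also among the 22528 genes tested. They fall into 3 steps: 7 genes of the RNA polymerase I machinery, 34 of nucleolar processing and assembly, and 9 of nucleotide synthesis. The RNA came from 4 established lines grown from diffuse large B-cell lymphomas, named U2932, SUDHL-4, TMD8 and WSU-DLCL2. Each line was treated for 18 hours with avadomide (CC-122), with lenalidomide or with the solvent DMSO, which gave 12 libraries, 1 for each line and treatment. No dose is stated for either compound, so whether the compounds were given at matched doses is unknown. Avadomide and lenalidomide both bind cereblon, the substrate receptor of a ubiquitin ligase, and direct the lymphoid transcription factors Ikaros and Aiolos to degradation. As background, U2932 and TMD8 are usually classed with activated B cells, the other lines with germinal-centre B cells, and each line comes from a single tumour.

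Ribosomes begin in the nucleolus, where RNA polymerase I copies the ribosomal DNA into a long precursor RNA. Small nucleolar ribonucleoproteins (snoRNPs) modify that precursor, and a large set of assembly factors cuts and folds it into the small and the large subunit. The work consumes purine and pyrimidine nucleotides, which growing lymphocytes make anew to a large extent. Many genes of these pathways are known targets of the transcription factor MYC, which binds the E-box sequence CACGTG. None of these statements is a result of the data below.

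Values are the authors' deposited log2 values, so a difference of -0.20 is a fall by 13.2% on the scale of these values, the size of the median change of the 50 genes under avadomide. Whether the values are per length is not stated, so the levels of single genes are not compared with each other, and level serves only to pick genes measured at a like height. A gene is called where limma, fitted to all genes with the cell line as a factor, gave a Benjamini-Hochberg adjusted p under 0.05. With 1 library for each line and treatment, the lines are the replicates and no test within a line is possible. The standard error of a gene is limma's moderated one, from the spread left over all 12 libraries after treatment and line, and is shared by the 3 comparisons. Sequencing depth is unknown. No pair of libraries had identical values. In bulk RNA, a lower value in every cell and a much lower value in some of the cells cannot be told apart.

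Under avadomide 36 of the 50 genes fell and none rose (none higher at an unadjusted limma p under 0.05 either), with a median log2 change of -0.20 and a range from -0.47 for NPM3 to 0.047 for RRN3. Of all genes tested, 11.2% were called lower and 13.6% higher, and their median change was 0.011. Among the 8272 genes with a mean log2 value of at least 10, a level that all but 1 of the 50 exceed, 21.2% were called lower and 17.1% higher. By step, 6 of 7 RNA polymerase I genes, 24 of 34 processing genes and 6 of 9 nucleotide synthesis genes fell, with median changes of -0.20, -0.21 and -0.16. In 38 genes the avadomide value lay below the DMSO value in 4 of 4 lines, against 16.8% of all genes tested and 2237 of the 8272 genes with a mean of at least 10. The median of the 50 genes was lowest in TMD8 (-0.33), followed by U2932 (-0.20), WSU-DLCL2 (-0.18) and SUDHL-4 (-0.11). The medians of all genes tested lay between -0.0029 and 0.022 in the same lines.

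**Figure D1:**
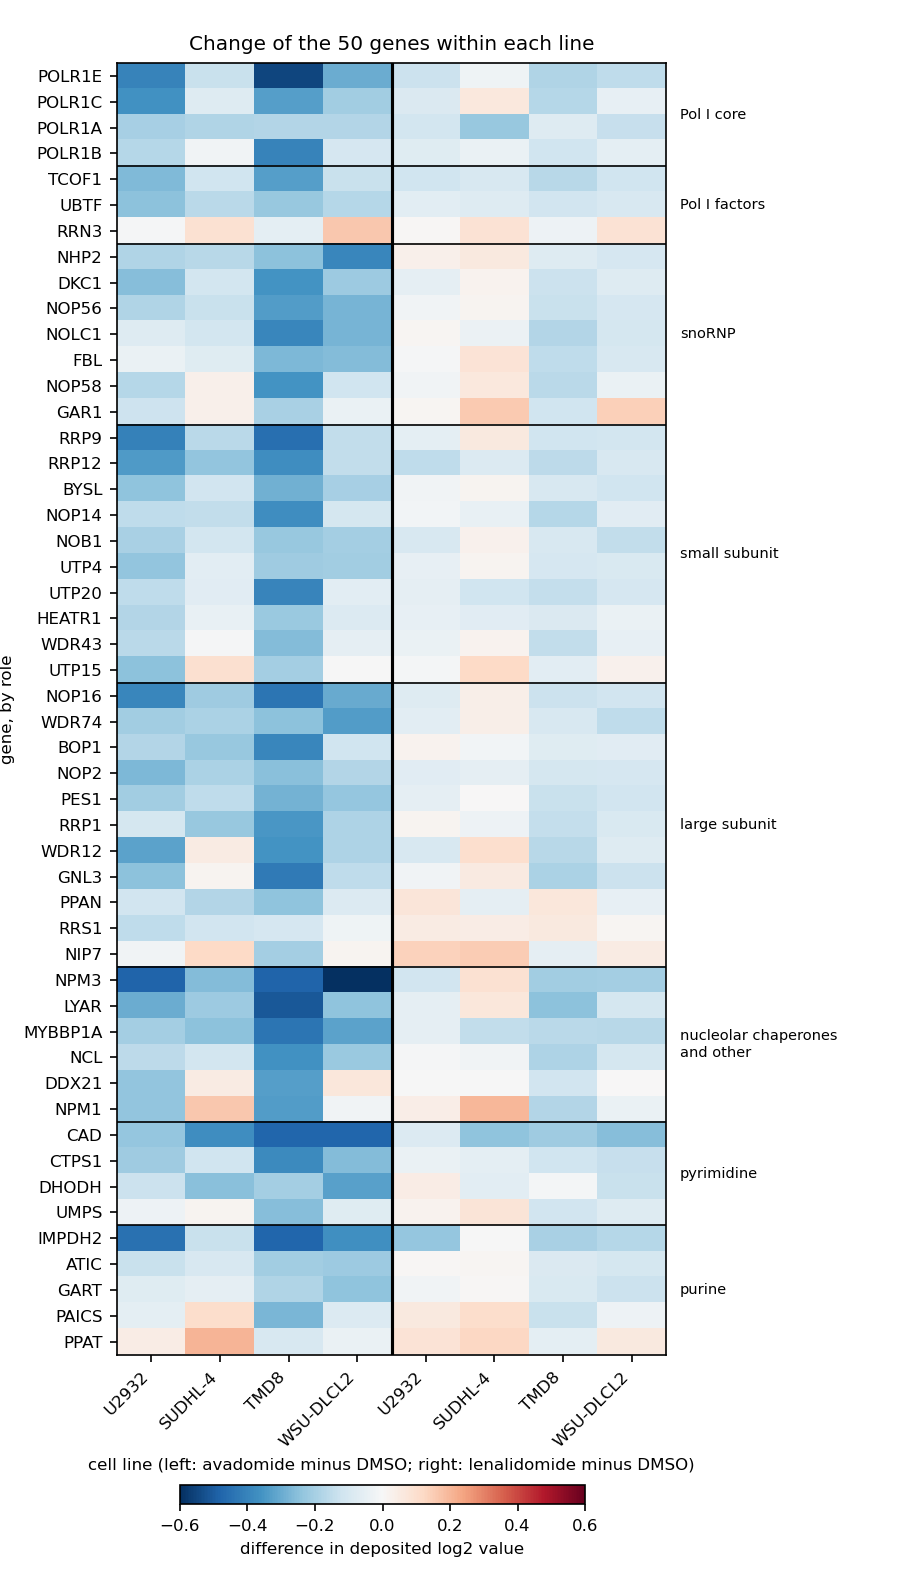
Change of each of the 50 genes (rows, grouped by role) within each line, as a difference in the deposited log2 value, for avadomide minus DMSO (left 4 columns) and lenalidomide minus DMSO (right 4 columns). Blue is lower and red higher with the compound, and NPM3 in WSU-DLCL2 (-0.64) lies past the end of the colour scale. The TMD8 column under avadomide is blue in 50 of 50 rows, and the SUDHL-4 column under avadomide in 38 of 50.

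Of the polymerase's own subunits, the 4 among the 50 genes all fell. POLR1E, the subunit that joins the initiation-competent enzyme (chromosome 9, 37485935 to 37503697, GRCh38), stood at 12.34 (U2932), 12.90 (SUDHL-4), 12.94 (TMD8) and 12.57 (WSU-DLCL2) with avadomide. The same lines, in this order here and below, gave 12.62, 13.01, 13.31 and 12.72 with lenalidomide and 12.75, 13.04, 13.49 and 12.87 with DMSO. The avadomide library was the lowest of its line in all 4 lines, while the treatments overlapped across lines. POLR1E fell by 0.35 ± 0.06 on the log2 scale (limma adjusted p = 0.00296), where the error, here and below, is limma's standard error. It also had one of the 3 widest spreads between lines (0.42). POLR1A, the largest, catalytic subunit (chromosome 2, 86020216 to 86106155), had the most even change of the 50 genes. Its values were 13.47, 13.53, 13.90 and 13.45 with avadomide, 13.56, 13.49, 13.99 and 13.49 with lenalidomide, and 13.67, 13.71, 14.07 and 13.63 with DMSO. The 4 differences from DMSO under avadomide lay between -0.20 and -0.17, a span of 0.027, and POLR1A fell by 0.18 ± 0.03 (limma adjusted p = 0.00436). In SUDHL-4 the lenalidomide library, not the avadomide library, was the lowest. POLR1C, a subunit shared with RNA polymerase III, fell by 0.25. POLR1B, the second-largest subunit, fell by 0.17, and its call (limma adjusted p = 0.0474) was lost when U2932 (0.149), TMD8 (0.140) or WSU-DLCL2 (0.111) was left out. Other subunits, from a further list and named after their values were seen, had -0.26 for POLR1G (limma adjusted p = 0.0246), and, not called, -0.087 for POLR1D, -0.053 for POLR1H and 0.086 for POLR1F (limma adjusted p = 0.0600, 0.575 and 0.432). The POLR1G call was lost when U2932 (0.0755), SUDHL-4 (0.0619) or TMD8 (0.0681) was left out.

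The factors that load the polymerase did not all move. UBTF, the upstream binding factor that opens and bends ribosomal DNA (chromosome 17, 44205033 to 44221626), stood at 14.15, 14.39, 14.24 and 13.87 with avadomide, at 14.33, 14.48, 14.36 and 13.94 with lenalidomide, and at 14.40, 14.56, 14.47 and 14.04 with DMSO. Avadomide was lowest, lenalidomide intermediate and DMSO highest in each line, and UBTF fell by 0.20 ± 0.03 under avadomide (limma adjusted p = 0.00179). TCOF1, the treacle protein that holds UBTF and the polymerase at the ribosomal genes (chromosome 5, 150357629 to 150400308), showed the same order. Its values were 13.50, 14.02, 14.07 and 13.89 with avadomide, 13.65, 14.04, 14.24 and 13.91 with lenalidomide, and 13.77, 14.14, 14.40 and 14.03 with DMSO. It fell by 0.21 ± 0.04 (limma adjusted p = 0.00483). RRN3, known as TIF-IA, ties the polymerase to its promoter in response to growth signals (chromosome 16, 15060022 to 15094317). RRN3 had the highest fitted change of the 50 genes. It stood at 12.30, 12.56, 12.67 and 12.62 with avadomide, at 12.31, 12.55, 12.70 and 12.54 with lenalidomide, and at 12.30, 12.47, 12.73 and 12.45 with DMSO. Its changes under avadomide were 0.091 in SUDHL-4 and 0.16 in WSU-DLCL2, with -0.0068 in U2932 and -0.060 in TMD8, and the fitted change of 0.047 was not called (limma adjusted p = 0.436). With median centring or with the GC and length trend removed, the sign of the RRN3 change turned (-0.063 and -0.0050). RRN3 has 3 pseudogenes by name, between which reads may be split. Of the 50 genes 10 have such pseudogenes. NOP56 (3), NHP2, PES1 and NCL (2 each) and LYAR (1) were called lower under avadomide. RRN3, NIP7, NPM1, PPAT and PAICS were not called.

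Among the snoRNP proteins, 5 of 7 fell. NOP56, a core protein of the box C/D particles that guide methylation of ribosomal RNA (chromosome 20, 2652145 to 2658393), was the only one of the 50 whose 4 avadomide libraries all lay below its 4 DMSO libraries, which held for 0.515% of all genes tested. It stood at 14.90, 15.03, 14.93 and 14.89 with avadomide, at 15.06, 15.18, 15.13 and 15.07 with lenalidomide, and at 15.08, 15.16, 15.27 and 15.17 with DMSO. The avadomide libraries also lay below all 4 lenalidomide libraries, and NOP56 fell by 0.23 ± 0.04 against DMSO (limma adjusted p = 0.00233). DKC1, dyskerin, is the pseudouridine synthase of the box H/ACA particles and also part of telomerase (chromosome X, 154762742 to 154777689). Its values were 14.09, 14.12, 14.24 and 13.88 with avadomide, 14.29, 14.25, 14.47 and 14.02 with lenalidomide, and 14.34, 14.23, 14.60 and 14.10 with DMSO. DKC1 was lowest with avadomide in every line and fell by 0.24 ± 0.04 (limma adjusted p = 0.00279). NHP2 (H/ACA), NOLC1 (a nucleolar snoRNP chaperone) and FBL, the fibrillarin methyltransferase, fell by 0.25, 0.21 and 0.16. NOLC1 lost its call without TMD8 (limma adjusted p = 0.0518) and without WSU-DLCL2 (0.0858), as did FBL (0.127 and 0.172). NOP58, the partner of NOP56, had a change of -0.16 (limma adjusted p = 0.0557) and GAR1 of -0.082 (limma adjusted p = 0.254). NOP56, NOP58 and DKC1 carry 5, 4 and 2 snoRNA genes inside their introns, so the values of these host genes may include reads of unspliced or small RNA.

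For the small subunit, 7 of 10 genes fell. RRP12, a factor of late pre-40S maturation and export (chromosome 10, 97356358 to 97426076), stood at 11.86, 12.11, 12.77 and 12.29 with avadomide, at 12.05, 12.26, 12.98 and 12.34 with lenalidomide, and at 12.20, 12.34, 13.14 and 12.44 with DMSO. The order avadomide, lenalidomide, DMSO held in each line, and RRP12 fell by 0.27 ± 0.04 (limma adjusted p = 0.00204). BYSL, bystin, also of late pre-40S maturation (chromosome 6, 41921188 to 41933046), had 11.79, 12.01, 12.22 and 11.94 with avadomide, 12.01, 12.14, 12.41 and 12.02 with lenalidomide, and 12.03, 12.13, 12.51 and 12.14 with DMSO. It was lowest with avadomide in every line and fell by 0.21 ± 0.04 (limma adjusted p = 0.00452). RRP9, the U3 snoRNP protein, fell by 0.29, NOP14 by 0.19, the endonuclease NOB1 and the t-UTP protein UTP4 by 0.18 each, and HEATR1 by 0.13. Without U2932 the RRP9 value was -0.25 (limma adjusted p = 0.0520), without WSU-DLCL2 UTP4 stood at 0.0550, and HEATR1 was called only with all lines or without SUDHL-4. UTP20, WDR43 and UTP15 had changes of -0.17, -0.12 and -0.089 that were not called. UTP15 had a difference of 0.097 in SUDHL-4 and of -0.24 (-0.245) in U2932.

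For the large subunit, 8 of 11 genes fell. NOP16, a pre-60S assembly factor (chromosome 5, 176383938 to 176388975), stood at 11.72, 12.94, 12.62 and 12.58 with avadomide, at 12.04, 13.18, 12.93 and 12.76 with lenalidomide, and at 12.12, 13.15, 13.06 and 12.88 with DMSO. U2932 was the line with the lowest NOP16 level under every treatment, and avadomide was lowest in each line, a fall by 0.34 ± 0.04 (limma adjusted p = 0.000969). NOP2, the cytosine methyltransferase of 28S ribosomal RNA (chromosome 12, 6556863 to 6568691), had 13.83, 13.86, 13.99 and 13.48 with avadomide, 14.03, 13.99, 14.13 and 13.55 with lenalidomide, and 14.10, 14.05, 14.24 and 13.65 with DMSO. Every line kept the order avadomide, lenalidomide, DMSO for NOP2, which fell by 0.22 ± 0.03 (limma adjusted p = 0.00149). The PES1, BOP1 and WDR12 proteins form the PeBoW complex, which acts in the processing of the large subunit's RNA. PES1 and BOP1 fell by 0.22 and 0.23, with the same sign in 4 of 4 lines. WDR12 fell by 0.20, with -0.32, 0.047, -0.36 and -0.18 in the 4 lines, and its call (limma adjusted p = 0.0316) was lost when U2932 (0.163), TMD8 (0.140) or WSU-DLCL2 (0.116) was left out. WDR74 and RRP1 fell by 0.24 and 0.22, while RRS1, PPAN and NIP7, with -0.10, -0.15 and -0.023, were not called. The sign of the NIP7 change turned without TMD8 (0.038).

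GNL3, nucleostemin, a nucleolar GTPase (chromosome 3, 52681156 to 52694492), had one of the 3 widest spreads between lines. It stood at 14.42, 14.55, 14.49 and 14.55 with avadomide, at 14.65, 14.59, 14.72 and 14.57 with lenalidomide, and at 14.67, 14.53, 14.91 and 14.70 with DMSO. In SUDHL-4 the avadomide and DMSO libraries differed by 0.014, and in TMD8 by -0.43. The fitted fall of 0.20 ± 0.06 (limma adjusted p = 0.0366) lost its call when U2932 (0.140), TMD8 (0.156) or WSU-DLCL2 (0.100) was left out. GNL3 holds 6 snoRNA genes.

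The 6 chaperones and other nucleolar proteins held both the largest fall and the widest spread. NPM3, a nucleoplasmin-family histone and ribosome chaperone (chromosome 10, 101781325 to 101783413), stood at 11.44, 12.88, 12.21 and 12.36 with avadomide, at 11.81, 13.23, 12.48 and 12.80 with lenalidomide, and at 11.92, 13.14, 12.69 and 13 with DMSO. Avadomide was lowest in each line, with differences from DMSO of -0.48, -0.26, -0.48 and -0.64, and NPM3 fell by 0.47 ± 0.06 (limma adjusted p = 0.000964), or 27.6%. MYBBP1A, a nucleolar MYB-binding protein that also acts in ribosomal RNA synthesis and processing (chromosome 17, 4538897 to 4555631), had 13.15, 13.27, 13.49 and 13.43 with avadomide, 13.30, 13.36, 13.77 and 13.59 with lenalidomide, and 13.35, 13.51, 13.93 and 13.76 with DMSO. It kept the order avadomide, lenalidomide, DMSO in every line and fell by 0.30 ± 0.04 (limma adjusted p = 0.00136). LYAR, a nucleolar regulator of growth, and NCL, nucleolin, fell by 0.32 and 0.21. DDX21, an RNA helicase of the nucleolus, had a change of -0.11 that was not called.

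NPM1, nucleophosmin, the related chaperone best known from leukaemia (chromosome 5, 171387116 to 171411137), did not follow NPM3. It stood at 16.85, 17.46, 17.14 and 17.49 with avadomide, at 17.13, 17.50, 17.30 and 17.47 with lenalidomide, and at 17.09, 17.30, 17.48 and 17.51 with DMSO. Its differences under avadomide ran from -0.34 in TMD8 over -0.24 in U2932 and -0.020 in WSU-DLCL2 to 0.16 in SUDHL-4, the widest range of the 50 genes (0.50). The fitted change was -0.11 ± 0.07 (limma adjusted p = 0.323). The annotation lists 45 NPM1 pseudogenes by name, so its values may be shared with copies.

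**Figure D2:**
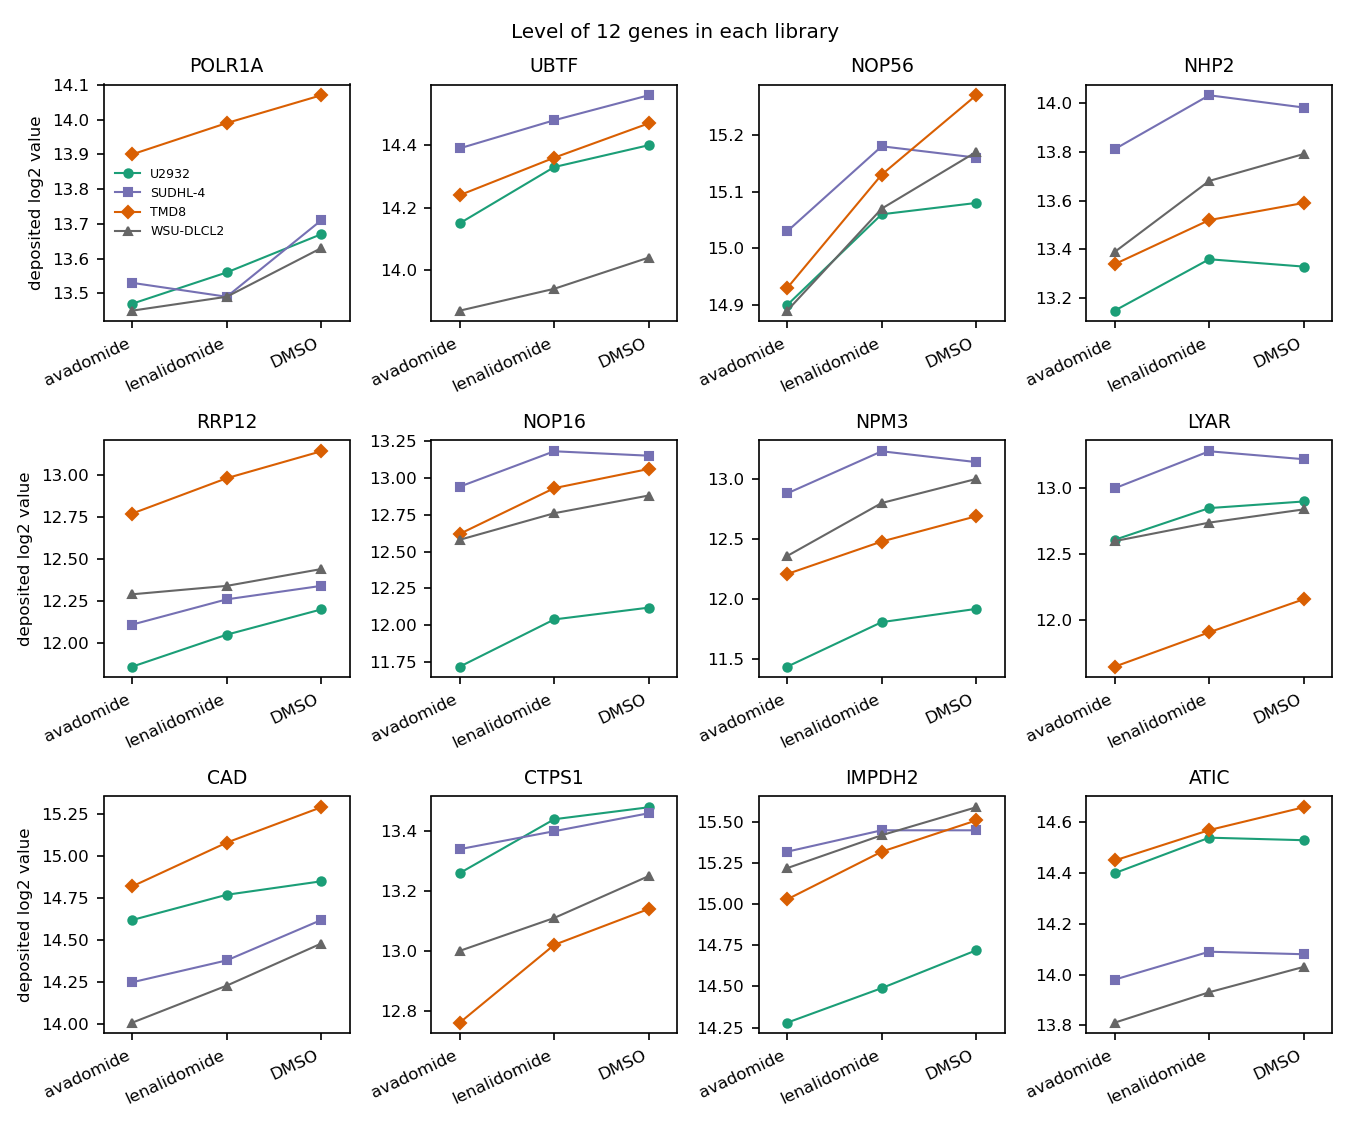
Deposited log2 value of 12 genes in each library, with avadomide left, lenalidomide in the middle and DMSO right, and lines joining the 3 libraries of a cell line; each panel has its own vertical axis, which does not start at 0. The avadomide point is the lowest of its line in each panel and line, with POLR1A in SUDHL-4 as the exception.

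Pyrimidines are built by CAD, DHODH and UMPS in turn, and CTPS1 converts UTP to CTP. CAD, a single protein with the first 3 enzyme activities of the route (chromosome 2, 27217390 to 27243943), had the smallest adjusted p of the 50 genes. It stood at 14.62, 14.25, 14.82 and 14.01 with avadomide, at 14.77, 14.38, 15.08 and 14.23 with lenalidomide, and at 14.85, 14.62, 15.29 and 14.48 with DMSO. The order avadomide, lenalidomide, DMSO held in each line, and CAD fell by 0.39 ± 0.04, or 23.7% (limma adjusted p = 0.000573). CTPS1, the CTP synthase on which proliferating lymphocytes are known to depend (chromosome 1, 40979335 to 41012565), had 13.26, 13.34, 12.76 and 13 with avadomide, 13.44, 13.40, 13.02 and 13.11 with lenalidomide, and 13.48, 13.46, 13.14 and 13.25 with DMSO. It showed the same order in each line and fell by 0.24 ± 0.04 (limma adjusted p = 0.00383). DHODH, the mitochondrial dehydrogenase of the pathway, fell by 0.23, with -0.13, -0.25, -0.21 and -0.32 in the 4 lines. UMPS, the enzyme that completes UMP, had a change of -0.086 that was not called (limma adjusted p = 0.209).

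Of the 5 purine genes 3 fell. IMPDH2, the rate-limiting enzyme of guanine nucleotide synthesis (chromosome 3, 49024325 to 49029408), stood at 14.28, 15.32, 15.03 and 15.22 with avadomide, at 14.49, 15.45, 15.32 and 15.42 with lenalidomide, and at 14.72, 15.45, 15.51 and 15.59 with DMSO. Avadomide was lowest in each line, and IMPDH2 fell by 0.36 ± 0.05 (limma adjusted p = 0.00166). ATIC, which catalyses the last steps to IMP (chromosome 2, 215311817 to 215349773), had 14.40, 13.98, 14.45 and 13.81 with avadomide, 14.54, 14.09, 14.57 and 13.93 with lenalidomide, and 14.53, 14.08, 14.66 and 14.03 with DMSO. It was lowest with avadomide in every line and fell by 0.16 ± 0.03 (limma adjusted p = 0.00608), a call lost without WSU-DLCL2 (0.0544). GART fell by 0.14, and this call was lost when U2932 (limma adjusted p = 0.0517), TMD8 (0.0959) or WSU-DLCL2 (0.137) was left out.

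PPAT, which commits phosphoribosyl pyrophosphate to the purine route (chromosome 4, 56393362 to 56435615), was not called. It stood at 13.27, 13.57, 12.94 and 13.47 with avadomide, at 13.31, 13.49, 12.98 and 13.57 with lenalidomide, and at 13.23, 13.37, 13.04 and 13.51 with DMSO. The avadomide value was above DMSO in U2932 and SUDHL-4 and below it in the other lines, and the fitted change was 0.027 ± 0.047 (limma adjusted p = 0.726). With median centring the PPAT change was -0.083, without SUDHL-4 it was -0.032, and with the GC and length trend removed it was -0.17 and called (limma adjusted p = 0.0162). PAICS, the bifunctional enzyme of the middle steps, had a change of -0.077 (limma adjusted p = 0.309). PPAT and PAICS lie head to head on chromosome 4 with 126 bases between them, and both had positive differences in SUDHL-4 (0.20 and 0.11). PAICS has 7 pseudogenes by name.

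**Figure D3:**
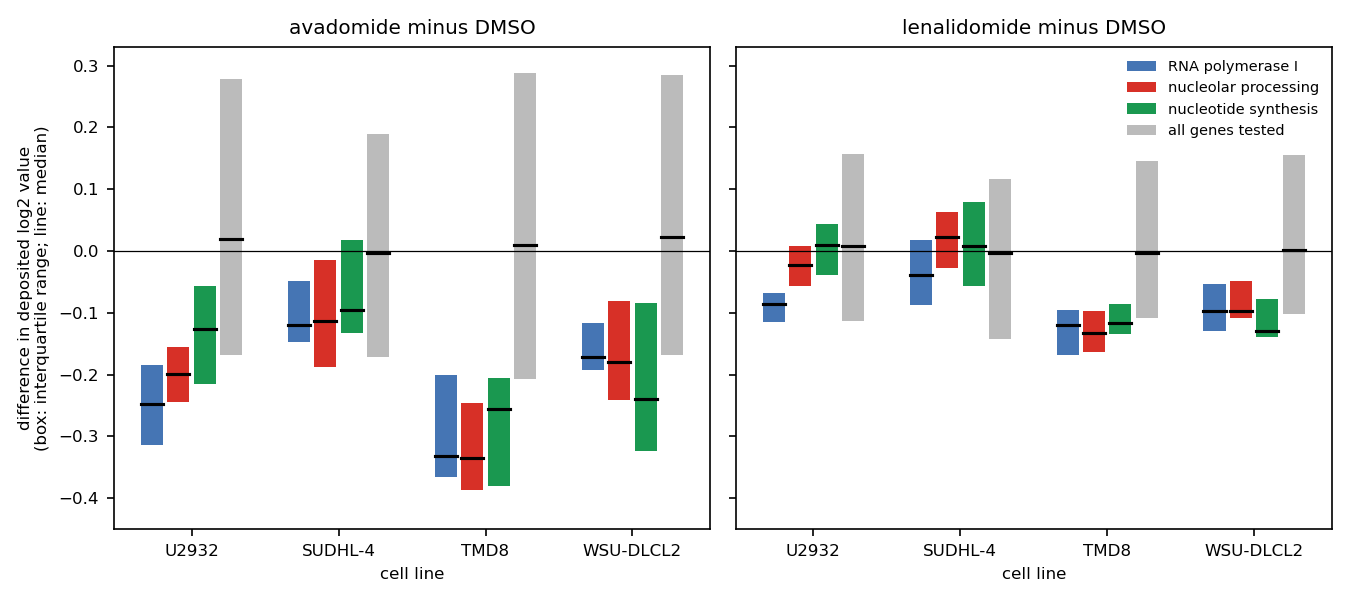
Median (black line) and interquartile range (box) of the within-line differences for each step and for all genes tested, for avadomide minus DMSO (left) and lenalidomide minus DMSO (right). Under avadomide all 12 step medians lie below 0, lowest in TMD8 for the processing genes (-0.335), and the medians of all genes tested lie near 0.

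Differences between steps were not tested. Under avadomide the RNA polymerase I genes had medians of -0.25, -0.12, -0.33 and -0.17 in the 4 lines, in the order above, and the processing genes -0.20, -0.11, -0.335 and -0.18. Those of the nucleotide synthesis genes were -0.13, -0.096, -0.26 and -0.24. The spread among the genes of a line was smaller than that of all genes tested: the interquartile range of the 50 genes was 0.11 to 0.17, and that of all genes tested 0.36 to 0.50. Part of that contrast goes with level, since genes with means of at least 10 had ranges of 0.26 to 0.29. The lines differed from each other more than the treatments did. With DMSO the gap between the highest and the lowest line had a median of 0.63 over the 50 genes, from 0.18 for NOP56 to 1.33 for RRP9, and in 44 genes it exceeded the change under avadomide in every line. TMD8 was the highest line in DMSO for 29 of the 50 genes, SUDHL-4 for 11, and U2932 and WSU-DLCL2 for 5 each.

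Lenalidomide against DMSO gave no call among the 50 genes in limma, with 10 at an unadjusted p under 0.05, all lower. An unadjusted limma p under 0.05, in either direction, was found for 2922 of the 22528 genes tested. Among genes with a mean of at least 10 it was found for 1692 of 8272, so the count of 10, regardless of direction, lies near that background. No share of lower genes alone is at hand, so the single direction of the 10 has no background here. Of all genes tested 0.00888% were called lower and 0.226% higher, so this comparison called few genes anywhere. The median change of the 50 genes was -0.060, and 42 lay below 0. Lower in 4 of 4 lines were 15, against 13.4% of all genes tested and 1638 of the 8272 genes with a mean of at least 10. The median was lowest in TMD8 (-0.12) and WSU-DLCL2 (-0.099), with -0.031 in U2932 and 0.015 in SUDHL-4. In U2932 the RNA polymerase I genes had a median of -0.086, the processing genes of -0.023 and the nucleotide genes of 0.0090. RRS1, a large subunit factor, was the only gene of the 50 higher with lenalidomide in 4 of 4 lines. The smallest adjusted p was that of CAD, with differences of -0.082, -0.24, -0.22 and -0.25 and a fitted change of -0.20 (95% interval -0.29 to -0.10; limma adjusted p = 0.0872). POLR1A had -0.14 (95% interval -0.21 to -0.065), IMPDH2 -0.15 (-0.26 to -0.035) and MYBBP1A -0.13 (-0.23 to -0.042). UBTF, TCOF1, RRP12, NOP2, PES1 and NOB1 were the others with an unadjusted p under 0.05. The intervals rest on a spread shared with the avadomide libraries, and a missed threshold does not show that lenalidomide left a gene as it was. With only the 8 lenalidomide and DMSO libraries in the fit, CAD was called (limma adjusted p = 0.0328). With limma's array weights, estimated from each library's spread around the fit, POLR1A, TCOF1, MYBBP1A, CAD and IMPDH2 were called lower. These weights went with treatment: 1.75 to 27.3 for the lenalidomide libraries and 0.229 to 0.805 for the avadomide and DMSO libraries.

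The difference of avadomide from lenalidomide is free of the DMSO values, which enter only through the shared estimate of the spread. With only the 8 libraries of the compounds in the fit, 9 genes were called in place of the 13 below. The comparison is of a single pair of compounds, both with the glutarimide ring that binds cereblon, at doses that are not stated. Avadomide was lower than lenalidomide for 13 of the 50 genes and higher for none (0 at an unadjusted p under 0.05), with a median difference of -0.14, while 2.22% of all genes tested were called lower and 2.51% higher. In 40 of the 50 genes the avadomide library was the lower in 4 of 4 lines, against 15.1% of all genes tested. Of the 8272 genes with a mean of at least 10, 386 were called lower and 294 higher, and 2134 were lower in 4 of 4 lines. Of the processing genes 11 of 34 were called, of the nucleotide synthesis genes 2 of 9 (CAD and DHODH), and of the RNA polymerase I genes 0 of 7, of which 3 had an unadjusted p under 0.05 in limma. The largest differences were -0.36 for NPM3 (95% interval -0.49 to -0.23; limma adjusted p = 0.0178), -0.27 for NOP16 (-0.36 to -0.17; adjusted p = 0.0177) and -0.23 for LYAR (-0.35 to -0.11; adjusted p = 0.0410). NHP2 differed by -0.22, BOP1 by -0.20, CAD and DHODH by -0.19 each, DKC1 and WDR74 by -0.18 each, and NOP56 and MYBBP1A by -0.17 each. NOP2 and PES1 differed by -0.14 and -0.145. POLR1A differed by -0.044 (95% interval -0.12 to 0.030) and RRN3 by 0.0087 (-0.081 to 0.098). No gene of the 50 was called when U2932, TMD8 or WSU-DLCL2 was left out, and 3 were called when SUDHL-4 was left out, although 29 to 37 genes had an unadjusted p under 0.05 in those fits.

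**Figure D4:**
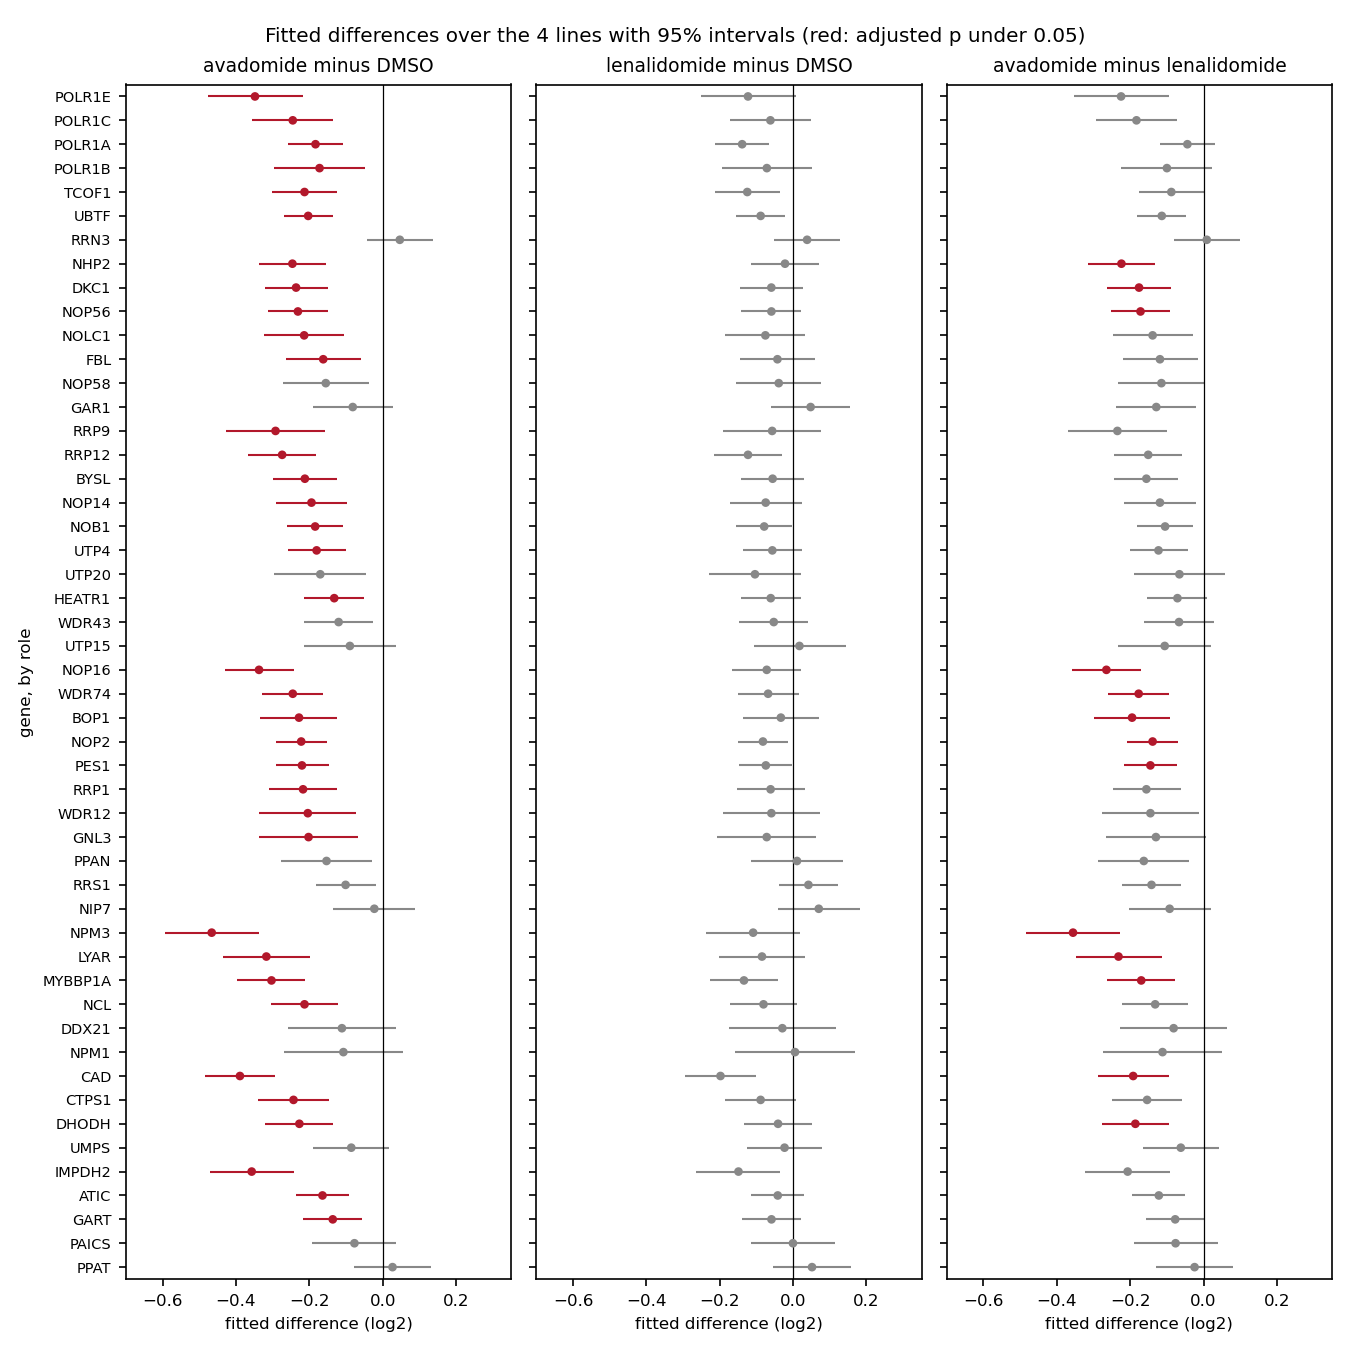
Fitted difference over the 4 lines (point) with its 95% interval (bar) for each of the 50 genes, for avadomide minus DMSO, lenalidomide minus DMSO and avadomide minus lenalidomide, on a log2 axis. Red marks an adjusted p under 0.05: 36 genes in the left panel, 0 in the middle and 13 in the right.

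The order avadomide below lenalidomide below DMSO was found for 48 of 50 genes in TMD8, 40 in WSU-DLCL2, 35 in U2932 and 16 in SUDHL-4. Of all genes tested 28.5%, 27.6%, 23.7% and 23.0% showed it in the same lines, and of genes with a mean of at least 10 40.8%, 40.1%, 32.4% and 24.4%, so the SUDHL-4 count (32.0%) lies near its background. The order held in all 4 lines for 11 genes (22.0%), against 3.85% of all genes tested and 7.5% of genes with a mean of at least 10. In SUDHL-4 29 of the 50 genes were at or above DMSO with lenalidomide. With no dose in the labels, the order places these libraries and not the compounds' potency.

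MYC itself moved in the same direction. It stood at 10.87, 14.81, 14.03 and 14.22 with avadomide, at 11.13, 14.93, 14.25 and 14.58 with lenalidomide, and at 11.24, 14.96, 14.48 and 14.73 with DMSO. Each line kept the order avadomide, lenalidomide, DMSO, and U2932 had the lowest level under every treatment. MYC fell by 0.37 ± 0.05 under avadomide (limma adjusted p = 0.00165), had a change of -0.13 under lenalidomide (limma adjusted p = 0.341) and was lower with avadomide than with lenalidomide by 0.24 (-0.243; limma adjusted p = 0.0378). That last call was lost when U2932 (0.155), TMD8 (0.105) or WSU-DLCL2 (0.174) was left out. Its differences under avadomide were smallest in SUDHL-4 (-0.15), the line where the 50 genes had their smallest median, and largest in WSU-DLCL2 (-0.52), where their median was not the largest. The part of MYC in the changes of the 50 genes was not tested.

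Genes of the same pathways outside the 50 were read from 7 further lists with 140 genes. Under avadomide 69 of them fell and 4 rose, with a median of -0.13. Of all genes tested 11.2% were called lower and 13.6% higher, and of genes with a mean of at least 10 21.2% and 17.1%. Under lenalidomide none of the 140 was called, with 22 lower and 6 higher at an unadjusted limma p under 0.05. Those counts lie near the background of 1692 among the 8272 genes with a mean of at least 10, in either direction. The small subunit list had 23 of 45 lower and the large subunit list 25 of 41, with none higher in either. TBL3 and WDR46, proteins of the small subunit processome, fell by 0.27 and 0.24, and the large subunit factors DDX51 and EBNA1BP2 by 0.34 and 0.32. In the list of other snoRNP genes 3 of 9 fell, among them RUVBL1 and RUVBL2, the ATPases that help assemble the particles (0.36 and 0.20). Of the other RNA polymerase I genes 6 of 14 fell and 1 rose, with TAF1C at -0.22 and POLR2E, a subunit shared with other RNA polymerases, at -0.18. The list also holds POLR2H (-0.29) and POLR2L (-0.18), shared subunits called lower, and POLR2F and POLR2K, shared subunits not called. POLR2F had values of only 1.09 to 3.64, near the filter's limit of 1, so its missing call says little about a change. TAF1D, a subunit of the promoter factor SL1 like TAF1C, rose by 0.13 (limma adjusted p = 0.0429), but stood at 0.016 with median centring and at -0.021 with the GC and length trend removed, and its call was lost when U2932 (0.125), SUDHL-4 (0.176) or WSU-DLCL2 (0.182) was left out.

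Of the nucleotide lists, the purine list had 7 of 12 lower and none higher. IMPDH1, the second isoform of the IMPDH2 enzyme, stood at 12.45, 13.26, 12.88 and 12.67 with avadomide, at 12.56, 13.45, 13.03 and 12.80 with lenalidomide, and at 12.70, 13.50, 13.15 and 12.93 with DMSO. It was lowest with avadomide in each line and fell by 0.26 ± 0.03 (limma adjusted p = 0.000671), and PFAS, of the middle steps, fell by 0.26. In the pyrimidine list 3 of 9 fell and 1 rose, against 21.2% and 17.1% of genes with a mean of at least 10. DTYMK, the thymidylate kinase, was lower by 0.25 (-0.249). CMPK1, the kinase that phosphorylates UMP and CMP, rose by 0.36 ± 0.05 (limma adjusted p = 0.00126), with 13.41, 13.73, 13.48 and 13.94 with avadomide, 13.41, 13.62, 13.38 and 13.84 with lenalidomide, and 13.13, 13.28, 13.26 and 13.47 with DMSO. It was lowest with DMSO in each line and stayed called higher in each alternative with the line as a factor. In the salvage list, of enzymes that reuse bases and nucleosides, 2 of 10 fell and 2 rose, close to the 21.2% and 17.1% of genes with a mean of at least 10. The mitochondrial thymidine kinase TK2 fell by 0.62 ± 0.16, HPRT1, which reuses guanine and hypoxanthine, rose by 0.26 ± 0.07, and DCK, the deoxycytidine kinase, rose by 0.23 ± 0.06 (limma adjusted p = 0.0218, 0.0264 and 0.0218). With median centring, HPRT1 and DCK stood at 0.14 and 0.12 and were not called (limma adjusted p = 0.251 and 0.279). The TK2 call was lost when U2932 (0.118), TMD8 (0.0650) or WSU-DLCL2 (0.0976) was left out. That of HPRT1 was lost when U2932 (0.128), SUDHL-4 (0.128) or WSU-DLCL2 (0.111) was left out, and that of DCK when U2932 (0.0620), SUDHL-4 (0.0922) or TMD8 (0.0572) was.

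Promoters were read for the E-box, since many of these genes are known MYC targets. RefSeq promoter windows (build GRCh38.p14, from 250 bases before to 50 bases after the start) were matched by symbol for 42 of the 50 genes. The start is the window's own and can differ from the gene positions given above. Bases just after it were found in an annotated transcript of the gene for 31 of the 42 windows. CACGTG, which reads the same on both strands, was found in 13 of the 42 windows (31.0%), against 9.97% of the 11215 windows of tested genes and 7.43% of the 27305 windows in all. Within 50 bases of the start it was found in 11 of 42 (26.2%), against 3.99% of the windows of tested genes and 2.87% of all. This narrower count was added after the positions had been seen. Of the genes called lower under avadomide 10 of 30 held the motif (33.3%), and of those not called 3 of 12. In the 7 further lists it was found in 29 of 122 windows (23.8%). With CACGCG on either strand counted as well, the motifs were found in 21 of the 42 windows, against 25.3% of those of tested genes. A match describes letters and not binding.

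The 14 sites in the 13 genes are shown with up to 12 bases on each side, so that their surroundings can be compared. Capitals mark CACGTG, the strand is that of the gene, and the site's first base is counted from the start that the promoter window uses. A site counted as before that start can lie inside the gene positions given above, as ATIC at -46 does. The genes are ordered by name, and NOP2 reaches the end of its window.
ATIC at -46: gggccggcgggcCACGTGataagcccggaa
ATIC at 30: ctcctacctgcgCACGTGgtgccgccgctg
BYSL at 29: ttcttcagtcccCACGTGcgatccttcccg
DHODH at -159: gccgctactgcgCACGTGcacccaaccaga
FBL at 7: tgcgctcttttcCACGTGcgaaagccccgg
MYBBP1A at 28: ggggccggagcaCACGTGtttcgtgtttcg
NOP14 at 16: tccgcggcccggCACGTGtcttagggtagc
NOP2 at 36: aggtccggattgCACGTGgagggccgc
PES1 at 14: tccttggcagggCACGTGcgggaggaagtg
PPAT at -182: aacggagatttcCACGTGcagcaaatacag
RRP9 at -5: gggttcagctgcCACGTGagttctgcggcc
UTP20 at -10: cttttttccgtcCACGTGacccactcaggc
UTP4 at -16: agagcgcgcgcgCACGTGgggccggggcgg
WDR43 at 4: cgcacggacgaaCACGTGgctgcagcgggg

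The site was followed by CG in BYSL, FBL and PES1. No RNA polymerase I gene is among the 13. Windows were at hand for 5 of the 7 RNA polymerase I genes, and 4 of those 5 held CACGCG on either strand. PPAT, UTP20 and WDR43 hold the motif and were not called, while the 2 genes of each step with the smallest adjusted p among those with a window, UBTF, POLR1A, NPM3, NOP16, CAD and CTPS1, fell and hold no CACGTG in this window. Both kinds are shown whole, ATIC as the gene with 2 sites (chr2:215311809-215312108, plus strand) and CAD as the gene with the smallest adjusted p (chr2:27217119-27217418, plus strand).
ATIC: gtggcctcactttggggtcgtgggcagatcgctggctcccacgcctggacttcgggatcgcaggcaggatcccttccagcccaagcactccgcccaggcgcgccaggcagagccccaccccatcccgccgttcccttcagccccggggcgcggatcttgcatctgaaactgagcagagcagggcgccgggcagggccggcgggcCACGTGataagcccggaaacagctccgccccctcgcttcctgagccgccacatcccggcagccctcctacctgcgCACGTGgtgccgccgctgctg
CAD: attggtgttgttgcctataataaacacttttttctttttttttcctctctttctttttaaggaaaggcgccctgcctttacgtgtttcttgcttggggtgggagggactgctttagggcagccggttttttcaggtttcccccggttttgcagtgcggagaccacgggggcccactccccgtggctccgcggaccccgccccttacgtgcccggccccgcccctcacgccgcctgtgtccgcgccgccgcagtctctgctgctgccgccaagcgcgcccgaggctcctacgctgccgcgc

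GC content moved with the changes, most in SUDHL-4. Over the 50 genes, Spearman's rho between the avadomide difference and the GC content of the longest transcript was -0.80 in SUDHL-4, -0.40 in WSU-DLCL2, -0.17 in U2932 and -0.16 in TMD8. Over the 17573 tested genes with a GC content it was -0.41, -0.22, -0.064 and -0.061, in the same order. The genes within a library share its depth and base composition, so these are descriptions across genes. The median GC content was 52.7% for the 36 genes called lower and 42.3% for the 14 not called. The GC and length trend of all genes was then removed from each library, taken against the mean of the 12 libraries. After this 40 of the 50 genes were called lower, against 37 without the removal over the same genes. The correlation over the 50 genes in the fit was 0.053, against -0.53 before. FBL (limma adjusted p = 0.0875) and BOP1 (0.0629) were then not called. NOP58, UTP15, WDR43, DDX21 and PPAT were then called lower, with changes of -0.17 (PPAT) to -0.20 (UTP15). UTP20 was called in both of these fits.

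**Figure D5:**
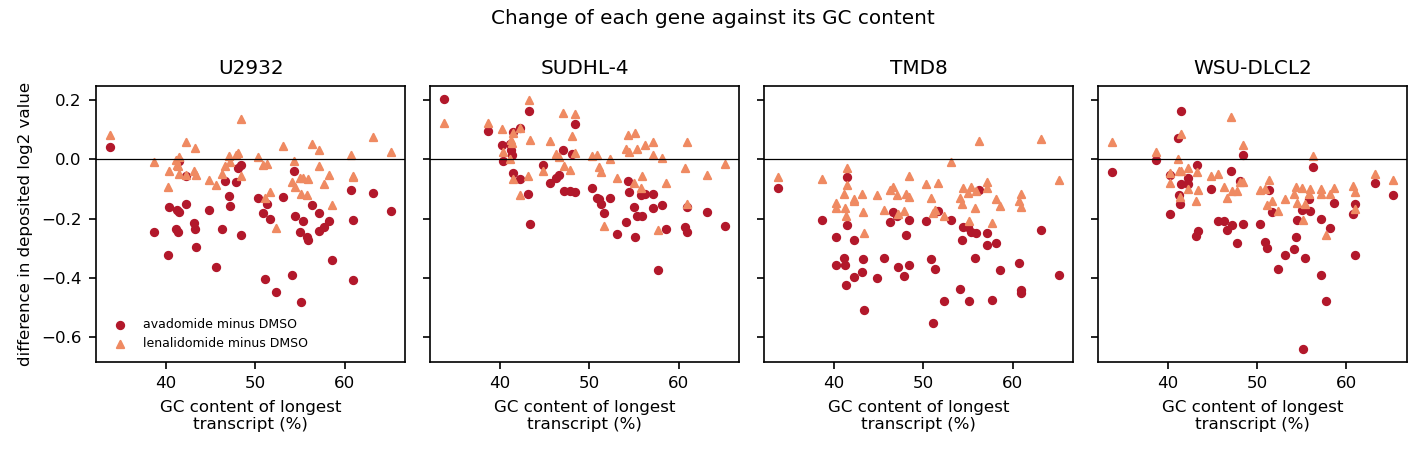
Difference from DMSO of each of the 50 genes (deposited log2 value) against the GC content of its longest transcript in percent, 1 panel for each cell line, with circles for avadomide and triangles for lenalidomide. In SUDHL-4 the avadomide points slope down from 0.20 for PPAT, the gene with the lowest GC content (33.8%).

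The lines were checked against markers. The 5 B-cell markers reported (MS4A1, CD79A, CD79B, PAX5 and CD22) each had a log2 value of at least 1 in every library, and their summed level lay at 17.8 to 18.4 with avadomide, 17.9 to 18.3 with lenalidomide and 17.9 to 18.3 with DMSO. The 6 T and NK cell markers summed to 9.37 to 12.8 with avadomide, 8.63 to 13 with lenalidomide and 8.22 to 13 with DMSO, with CD3D below 1 in all 12 libraries. The 6 myeloid markers summed to 4.58 to 7.08 with avadomide, 4.31 to 6.62 with lenalidomide and 3.82 to 6.62 with DMSO, with S100A8 below 1 in all 12. The 7 stromal and epithelial markers summed to 10.4 to 11.8 with avadomide, 9.45 to 12 with lenalidomide and 8.98 to 11.9 with DMSO. From outside the B lineage, 4 T and NK cell, 5 myeloid and 6 stromal and epithelial markers passed the filter and were tested. Of these, 6 were called higher under avadomide (NKG7, LYZ, FCN1, CD68, COL1A1 and PECAM1) and DCN lower. Of all genes tested 13.6% were called higher and 11.2% lower. Among the B-cell markers CD22 was called lower. The part of these markers in the changes of the 50 genes was not tested.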

How the data were processed

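RNA of 12 libraries was analysed from the authors' deposited table of log2 values per gene, which ran from -2.41 to 20.1. The submitters' processing notes name STAR, Salmon, MACS and genome build hg38. How the values were normalized and transformed is not stated. Whole reads could not be recovered, so depth is unknown. Of 58684 entries, 28 with symbols turned into dates were left out. Tests ran on the 22528 genes that reached a log2 value of 1 in 4 or more libraries.

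Limma 3.58.1 in R 4.3.3 was fitted to all 12 libraries with treatment and line as factors and an intensity trend. This gave 6 residual and 9.62 total degrees of freedom. Tests were two-sided, with Benjamini-Hochberg adjustment over all genes tested. The labels give the line of each library, so lines pair the treatments. Libraries of a line deviated together from the means of their treatments (Pearson's r 0.918 to 0.977). Those of different lines had values of -0.589 to 0.199. Subtracting the mean over the lines pushes these below 0 on average, so no conclusion is drawn from them. The fit was tested on simulated data. The 50 genes and the lists were chosen with earlier results of these data known, so counts over them are descriptions.

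Values in all libraries are given for the 2 genes of each role with the smallest adjusted p under avadomide, the 2 highest changes and the 3 widest ranges over lines. From each further list the 2 smallest adjusted p and every gene called higher are named. Positions, snoRNA genes and pseudogenes come from GENCODE on GRCh38, and promoters from RefSeq. Of the 6 promoters that a rule on adjusted p named, CAD is shown; ATIC and the 14 sites were chosen after the motif had been searched. Alternatives covered filters, scaling, GC content, variance settings, the line factor and leaving out each line. A further marker of the B-cell list is not reported here.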

Additional observations from a re-analysis of the deposited data

Results flagged for a closer look

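For each of the 50 genes and each step, the 4 lines were searched for a line far from the other lines, by Dixon's criterion for 4 values. Of 158 groups of 4 values 7 stood out, and chance gives about 1 in 20. The UTP4 difference under avadomide was -0.063 in SUDHL-4, against -0.21 to -0.24 in the other lines (nearest -0.208, lowest -0.236). The MYBBP1A difference under lenalidomide was -0.056 in U2932, with the nearest line at -0.15. The DDX21 difference under lenalidomide was -0.12 in TMD8, with the nearest line at -0.0034. Levels with DMSO stood apart for NOP14 (13.16 in TMD8, nearest line 13.74), UTP4 (14.11 in TMD8, nearest 13.66), GART (14.96 in U2932, nearest 14.51) and IMPDH2 (14.72 in U2932, nearest 15.45).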

How the results depend on the processing

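None of these alternatives called any of the 50 genes higher, and the 36 called lower under avadomide stayed below 0 in each. Leaving out a line in turn, 27 to 38 genes were called lower, 26 of the 36 in each of the 4 fits. With only the 8 libraries compared the count was 14 (37 at an unadjusted limma p under 0.05). With no replicate block, that is without the line as pairing factor, it was 0 (2 unadjusted). Other settings gave 30 to 42. Against lenalidomide, the count of 13 was 1 with no filter, 23 with a mean of at least 5, 24 with median centring, 24 with array weights, 0 with no intensity trend (29 unadjusted), 0 with no replicate block (1 unadjusted) and 0 to 3 without a line. Lenalidomide against DMSO gave 1 with the 8 libraries and 5 with array weights, and 0 otherwise, with no replicate block too (0 unadjusted). The array weights were higher in every lenalidomide library than in any avadomide or DMSO library.

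In the further lists, the 69 genes lower under avadomide were 18 with the 8 libraries, 0 with no replicate block and 40 to 67 without a line. The 4 higher were 1 with no filter, median centring, the 8 libraries or no intensity trend, 2 with the GC trend removed, 0 with no replicate block and 1 to 3 without a line. Under lenalidomide, 1 was lower with the 8 libraries and 6 with array weights; 1 was higher with a mean of at least 5 or the 8 libraries, 2 with array weights and 0 to 1 without a line. Against lenalidomide, 19 lower became 5 with no filter, 29 with a mean of at least 5, 38 with median centring, 11 with the GC trend removed, 10 with the 8 libraries, 31 with array weights, 0 with no intensity trend or no replicate block and 0 to 7 without a line.

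Median centring moved the median of all genes by -0.11 under avadomide. The 50 genes then had -0.313, and RNA polymerase I, processing and nucleotide synthesis -0.312, -0.318 and -0.274. Median centring shifts all genes of a library alike, so the median of the 50 relative to all genes, -0.214, could not change with it. With quantile normalization that relative median was -0.151, and with the GC and length trend removed -0.182. By line, median centring gave U2932 -0.375 overall and -0.425, -0.377 and -0.305 by step. It gave TMD8 -0.508, and -0.508, -0.511 and -0.432, and WSU-DLCL2 -0.329 for nucleotide synthesis. Against lenalidomide it gave -0.221, and -0.186, -0.226 and -0.208 by step. Under lenalidomide, TMD8 had -0.193, and RNA polymerase I -0.121, -0.00154 and -0.189 in U2932, SUDHL-4 and TMD8. That SUDHL-4 value was 0.0262 with the GC trend removed. Of all called genes under avadomide 3068 were higher and 2514 lower, against 1881 and 4825 with median centring, 2544 and 3644 with quantile normalization and 898 and 478 with the 8 libraries. Against lenalidomide 565 were higher and 500 lower, but 380 and 1356 with median centring and 487 and 696 with quantile normalization.

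RRN3 turned to -0.0629 with median centring and -0.00498 with the GC trend removed, and PPAT to -0.0827 and -0.169. Without a line, NIP7, avadomide against DMSO, ran from -0.0702 to 0.0383, and PPAT, avadomide against DMSO, from -0.0324 to 0.0684. Counting CACGCG as well, the share of promoters with a motif was 50%. The cause of these shifts was not tested. Depth is unknown, so what it limits could not be given.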
